A study of Mus musculus with 14 samples.

Results

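The transcripts described here come from 10 genes of the hypoxia response and of glycolysis: Slc2a1, Hk2, Pfkp, Pgk1, Ldha, Pdk1, Vegfa, Bnip3, Ndrg1 and Egln3. They were taken by symbol from a count table of 53465 genes, and each symbol stood for 1 gene ID. The rule that picks their rows uses no measured value, but the 10 genes were chosen with earlier results of these data known. The libraries are polyA RNA-seq of wild type C57BL/6 mouse embryos, with no treatment named. Dorsal skin was collected at 4 ages (E9.5 and E10.5, then E12.5 and E14.5), with 1 library an age titled E and 1 titled ES from another sequencing project. The aorta-gonad-mesonephros region (AGM), in which early blood stem cells form, was collected at E10.5 and E11.5, and at E9.5 the tissue taken was the rear of the embryo, which takes in the PsP, the para-aortic splanchnopleura. Each AGM age has 2 libraries, 1 from each of 2 sequencing rounds. The labels do not say whether libraries of an age came from separate embryos, so p-values measure the spread between these samples, which may be technical.

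Hypoxia-inducible factors (HIFs) are pairs of an oxygen-regulated alpha subunit and the partner Arnt. When oxygen is plentiful, prolyl hydroxylases mark the alpha subunit, the Vhl complex binds it and it is degraded. When oxygen falls, the pair binds hypoxia response elements with the core ACGTG or GCGTG and raises genes of glucose uptake, glycolysis, vessel growth and mitochondrial turnover. Most of these genes also answer to growth signals and cell type, and embryonic tissues use glycolysis in ample oxygen as well, so transcript levels do not measure oxygen.

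The promoter sequences are shown because the response element core is what ties these genes together in textbooks. RefSeq promoter windows (build GRCm38.p6, 250 bases before an annotated start) matched 9 of the 10 genes, with 12 windows among them. Vegfa and Pdk1 each have another window that lies inside the gene as the count table places it. Both Ldha windows lie inside the gene so placed, and the one with more matches is printed below. Both cores were searched on both strands, so a CACGTG counts as 2 matches. Of the 12 windows, 10 held a match, and each of the 9 genes had a window with one, which for Vegfa was only the window inside the gene. Among all 32851 windows of that length, 38.6% held either core, 16.6% held ACGTG and 28.2% held GCGTG. The 5 windows printed below are the richest, in the order of their match counts, with matches in capitals.
Bnip3, chr7:138909507-138909756, minus strand: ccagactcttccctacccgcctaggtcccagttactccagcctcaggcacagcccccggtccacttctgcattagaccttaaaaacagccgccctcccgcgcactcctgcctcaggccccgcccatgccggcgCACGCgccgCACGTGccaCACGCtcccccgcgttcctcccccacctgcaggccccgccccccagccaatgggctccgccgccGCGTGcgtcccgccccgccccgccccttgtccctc
Ldha, chr7:46845554-46845803, plus strand: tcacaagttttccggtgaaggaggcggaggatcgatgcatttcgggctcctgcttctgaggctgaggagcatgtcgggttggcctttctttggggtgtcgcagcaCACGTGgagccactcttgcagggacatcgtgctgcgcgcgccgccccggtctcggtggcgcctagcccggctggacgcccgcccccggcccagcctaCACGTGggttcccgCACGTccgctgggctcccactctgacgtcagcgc
Pfkp, chr13:6648772-6649021, minus strand: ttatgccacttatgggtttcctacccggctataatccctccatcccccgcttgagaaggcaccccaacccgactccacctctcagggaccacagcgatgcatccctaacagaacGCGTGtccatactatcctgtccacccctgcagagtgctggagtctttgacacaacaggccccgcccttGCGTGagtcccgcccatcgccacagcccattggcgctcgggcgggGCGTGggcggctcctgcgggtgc
Hk2, chr6:82774455-82774704, minus strand: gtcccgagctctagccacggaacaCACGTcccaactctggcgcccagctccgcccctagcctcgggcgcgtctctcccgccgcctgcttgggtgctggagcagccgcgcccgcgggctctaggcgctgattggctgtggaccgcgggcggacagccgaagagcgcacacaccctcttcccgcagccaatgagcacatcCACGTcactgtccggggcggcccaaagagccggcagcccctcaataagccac
Pgk1, chrX:106186850-106187099, plus strand: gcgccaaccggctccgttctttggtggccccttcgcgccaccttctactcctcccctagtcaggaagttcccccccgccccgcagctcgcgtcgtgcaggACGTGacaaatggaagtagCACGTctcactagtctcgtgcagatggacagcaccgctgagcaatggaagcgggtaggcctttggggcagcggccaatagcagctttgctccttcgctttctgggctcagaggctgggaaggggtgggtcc

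Bnip3 and Ldha had 5 matches each, and both of the 2 complete CACGTG words in Ldha count double. The last 13 bases of the Bnip3 window and 6 of the Pfkp window lie in an exon of the gene itself. Pfkp had 3, all of GCGTG, and the windows of Hk2 and Pgk1 had 2 of ACGTG. Slc2a1 and Vegfa also reached 2, in windows that overlap their own exons by 34 and 218 bases and are not printed. Both Vegfa matches lie in its window inside the gene, and its window before the start of the gene held 0. Egln3 and Pdk1 had 1. Windows with 3 or more matches made up 6.58% of all windows. The 5 printed windows are 62.8 to 72.4% G and C against a median of 52.4%, and both cores hold a CpG, so base composition moves with the count. A match is a stretch of letters, and binding was not measured.

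Total counts were 19929352 to 24003912 in skin titled E, 6770338 to 15440012 in skin titled ES and 21527400 to 29534551 in AGM. Values per library are in CPM, counts per 1000000 counts of the library's total. The least covered value of any of the 10 genes rested on 96 counts. Skin titled ES stood apart from skin titled E. Its 10 red cell genes summed to 0.295 to 0.855 CPM against 2382 to 5666, with embryonic globins at 0 in all 4 libraries. Its 8 genes of dividing cells summed to 207 to 295 CPM against 2092 to 3762, and its 8 macrophage genes to 568 to 1464 CPM against 6.92 to 252. Lyz2 alone made up 435 to 1112 CPM of that ES sum, and Cx3cr1 went the other way, at 0 to 0.570 CPM in ES against 0.401 to 24.5 CPM. At E14.5, Csf1r (16.65 against 50.2 CPM), Mrc1 (74.5 against 97.6 CPM) and C1qb (12.8 against 20.8 CPM) were also lower in ES. Adgre1, Cd68, C1qa and Lyz2 were higher in ES at that age. Keratinocyte genes, the defining markers of epidermis, summed to 90.5 to 122 CPM in ES. In skin titled E they summed to 36.5 to 281 CPM before E14.5 and to 7518 CPM at E14.5. The ES sum was mostly Dsp, at 38.2 to 68.7 CPM, and Perp, at 49.9 to 64.4 CPM. Krt5 stood at 0.324 to 1.625 CPM in ES against 3.36 to 1722 CPM in skin titled E. Trp63 stood at 0.356 to 0.648 CPM against 9.11 to 248.5 CPM.

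The AGM age labels ran against several genes that mark embryonic age, though not against all that were looked at. Lin28a encodes an RNA-binding protein of early embryos that is lost as development goes on. In skin titled E it stood at 366, 84.6, 0.667 and 0.940 CPM from E9.5 to E14.5. In AGM it went the other way along the labelled ages, at 22.99, 122 and 571 CPM in round 1 and 40.9, 129 and 496 CPM in round 2. Lin28b, Trim71, Sall4 and Igf2bp1 had the same opposite order. Hmga2 did not. It fell along the labelled AGM ages, at 1186, 1119 and 844 CPM in round 1 and 1406, 1091 and 857.5 CPM in round 2. In skin titled E, Hmga2 stood at 683, 426, 470 and 71.6 CPM from E9.5 to E14.5. The 8 macrophage genes summed to 6.92, 26.2, 144 and 252 CPM in skin titled E from E9.5 on, but to 144, 58.3 and 6.97 CPM in round 1 and 130, 54.2 and 8.13 CPM in round 2 from AGM labelled E9.5 to E11.5. Whether the AGM ages were interchanged was not tested, so the word labelled goes with each AGM age below. The columns of round 2 carry sample numbers without ages and were matched through the numbers that round 1 ties to an age, which is an assumption.

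**Figure D1:**
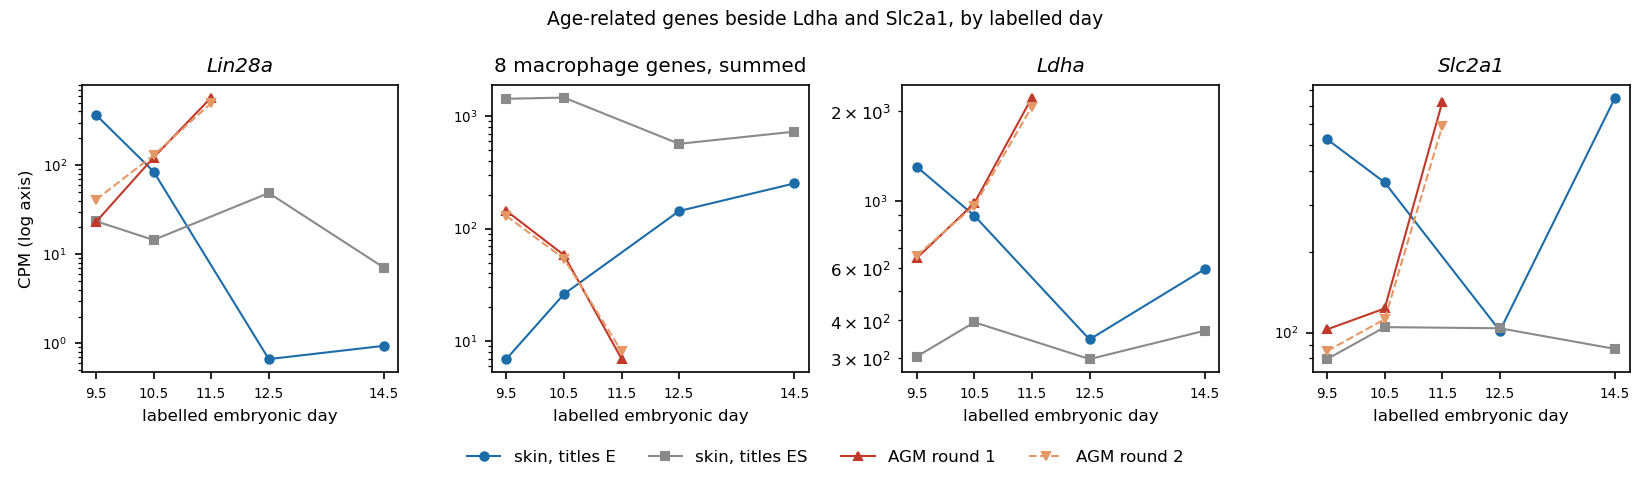
CPM on a log axis against the labelled embryonic day for Lin28a, the sum of 8 macrophage genes, Ldha and Slc2a1, 1 point a library. From the first to the last labelled day Lin28a falls in skin titled E and is higher at each later labelled AGM age, and Ldha and Slc2a1 are higher in AGM labelled E11.5 than in any other AGM library.

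Glucose entry and its trapping in the cell come first. Gene positions are those of the count table, in mouse build GRCm38. Slc2a1 (chr4:119108711-119137983) encodes GLUT1, the main glucose transporter of embryonic tissue. In skin titled E it measured 525 CPM at E9.5, 363 CPM a day later, 101 CPM by E12.5 and 751 CPM by E14.5. In AGM labelled E9.5, E10.5 and E11.5 it measured 103, 123 and 723 CPM in round 1 and 85.3, 112 and 588 CPM in round 2. Both AGM libraries labelled E11.5 and skin at E14.5 and E9.5 were highest, skin at E10.5 lay between, and the other 4 AGM libraries lay near the skin library of E12.5. Skin titled ES kept between 79.6 and 105 CPM at all 4 ages.

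Hk2 (chr6:82725025-82774454) encodes hexokinase 2, which phosphorylates glucose so that it stays in the cell. Its skin values in libraries titled E were 187, 109, 51.4 and 78.6 CPM from E9.5 to E14.5. Its AGM values were 82.2, 96.2 and 187 CPM in round 1 and 77.0, 89.3 and 164 CPM in round 2. Both rounds were highest at AGM labelled E11.5, with no overlap with the other AGM ages, while skin was highest at its youngest age. In ES it ranged from 21.1 to 34.2 CPM, below every library titled E.

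Pfkp (chr13:6579768-6648777) encodes the platelet form of phosphofructokinase, which commits sugar to glycolysis. It measured 17.6, 17.7, 22.2 and 41.6 CPM in skin titled E from E9.5 to E14.5. AGM libraries overlapped between ages, at 23.7 and 18.5 CPM labelled E9.5, 13.3 and 16.9 labelled E10.5, and 21.6 and 20.9 labelled E11.5, round 1 first. ES held 82.9 to 107 CPM, above every other library.

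Pgk1 (chrX:106187100-106203699) encodes phosphoglycerate kinase, an ATP-yielding step. Skin titled E had 25.2, 22.2, 9.58 and 20.01 CPM from E9.5 to E14.5. AGM had 130, 167 and 301 CPM in round 1 and 126, 152 and 263 CPM in round 2 along the labelled ages, and ES had 139 to 215 CPM. Every AGM and ES library was above every skin library titled E.

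Ldha (chr7:46841475-46855627) encodes the lactate dehydrogenase subunit that turns pyruvate to lactate. It was the most abundant of the 10 genes in CPM in 13 of the 14 libraries. Skin titled E had 1304, 895, 346 and 594 CPM from E9.5 to E14.5. AGM had 646, 985 and 2218 CPM in round 1 and 659, 966 and 2069 CPM in round 2 along the labelled ages. The 3 labelled AGM ages did not overlap, and their order was the reverse of the fall in skin from E9.5 to E12.5. ES had 297 to 395 CPM.

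Pdk1 (chr2:71873224-71903858) encodes a pyruvate dehydrogenase kinase, which inhibits the use of pyruvate by pyruvate dehydrogenase in the mitochondrion. It measured 109, 91.6, 80.1 and 152 CPM in skin titled E from E9.5 to E14.5. In AGM it measured 69.4, 78.3 and 128 CPM in round 1 and 70.7, 87.7 and 125 CPM in round 2. Those 3 labelled ages did not overlap. ES had 7.06 to 18.2 CPM, below every other library.

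Vegfa (chr17:46016993-46032369) encodes the ligand that draws blood vessel growth. Its AGM order was unlike that of the glycolysis genes. It measured 109, 82.6 and 66.8 CPM in round 1 and 110, 88.4 and 67.1 CPM in round 2, highest at AGM labelled E9.5 with no overlap between ages. Skin titled E had 77.7, 61.1, 72.2 and 177 CPM from E9.5 to E14.5, and ES had 153 to 188 CPM.

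Bnip3 (chr7:138890836-138909519) encodes a mitochondrial protein of mitophagy, the removal of mitochondria. It was low in skin titled E, at 8.63, 7.92, 5.92 and 12.7 CPM from E9.5 to E14.5, and 7.25 to 17.7 CPM in ES. AGM had 23.2, 22.4 and 26.8 CPM in round 1 and 24.1, 27.1 and 36.5 CPM in round 2, all above every skin library. Between AGM ages the libraries overlapped.

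Ndrg1 (chr15:66929321-66969640) encodes a cytoplasmic protein induced by low oxygen and by differentiation. It measured 5.87, 5.02, 16.5 and 162 CPM in skin titled E from E9.5 to E14.5, and the E14.5 library was far above all 13 others. AGM held 7.81 to 10.4 CPM in all 6 libraries and ES 16.4 to 21.7 CPM.

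Egln3 (chr12:54178981-54203860) encodes the prolyl hydroxylase PHD3, which is itself raised by HIF and marks HIF for degradation. Skin titled E had 10.49, 20.6, 12.7 and 43.0 CPM from E9.5 to E14.5. AGM had 7.69, 8.04 and 12.3 CPM in round 1 and 8.05, 9.18 and 10.96 CPM in round 2, with both libraries labelled E11.5 above the other 4. ES had 12.7 to 20.7 CPM.

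**Figure D2:**
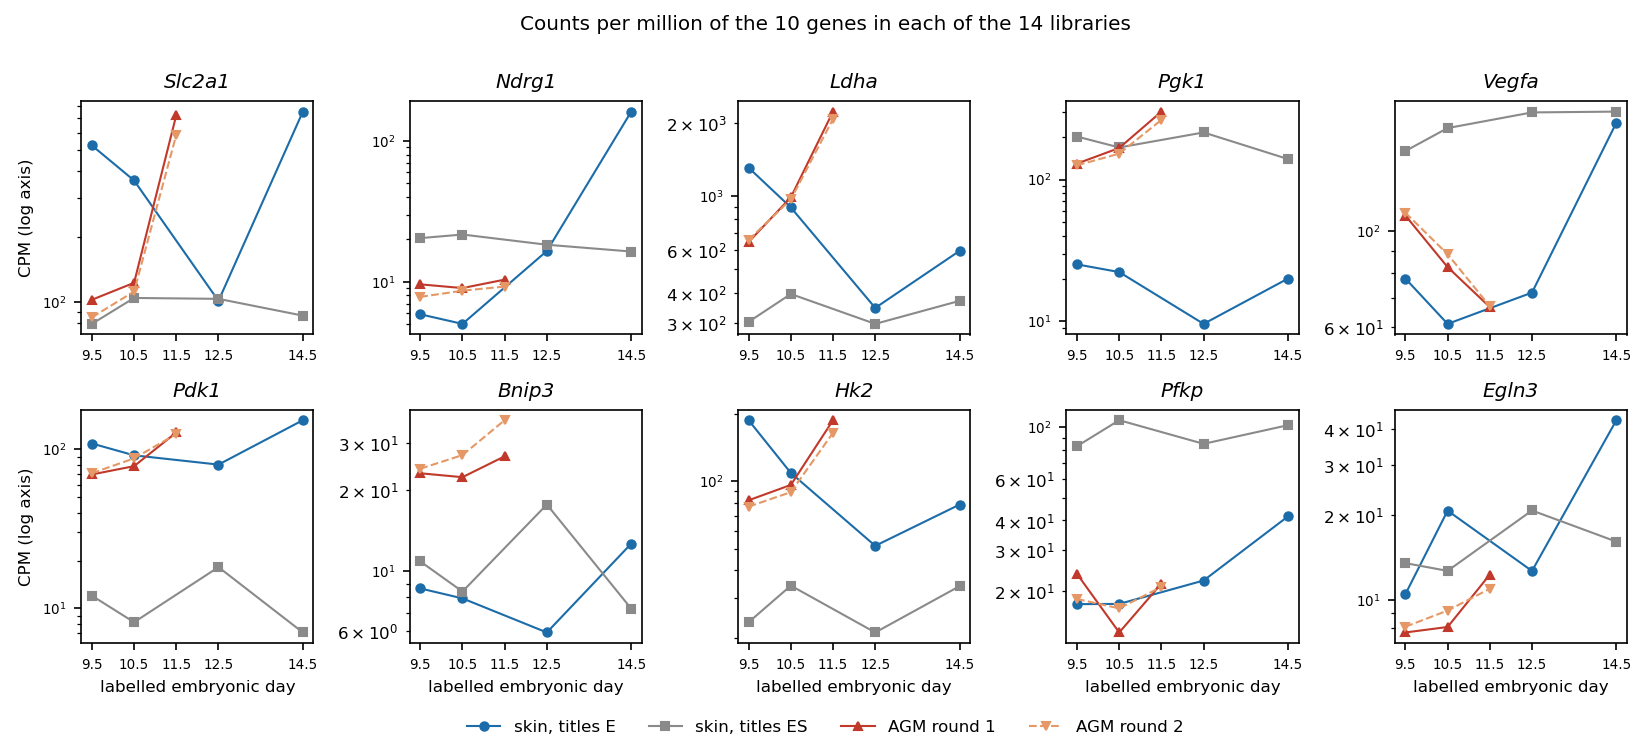
CPM on a log axis (each panel with its own range) against the labelled embryonic day for the 10 genes in 14 libraries: skin titled E, skin titled ES, and the 2 AGM rounds. Slc2a1 shows 2 peaks in skin titled E, at E9.5 with 525 CPM and at E14.5 with 751 CPM, while in ES it stays between 79.6 and 105 CPM.

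Compared per kilobase of exon, Ldha ranked first of the 10 genes in 12 libraries, from 89.8 (ES at E12.5) to 670 CPM per kb (round 1 of AGM labelled E11.5) over all 14. Slc2a1 ranked first in skin titled E at E14.5, with 214 CPM per kb against 179 for Ldha, and second in the 3 younger libraries titled E and in both AGM libraries labelled E11.5. Pgk1 ranked first in ES at E12.5, with 95.7 CPM per kb. At the low end Ndrg1 went from rank 10 in skin titled E at E9.5, with 0.890 CPM per kb, to rank 4 at E14.5, with 24.5 CPM per kb. Pfkp ranked 9 or 10 in every AGM library and every library titled E, and between 5 and 7 in ES. Between neighbours in these orders a single library a group leaves the spread unknown.

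Counts were compared by edgeR's quasi-likelihood test, with log2 changes ± SE and p-values adjusted by the Benjamini-Hochberg method over all genes tested. AGM pairs gave the spread, and skin titled E, with 1 library an age, was assumed to vary like the AGM pairs. Some fits below take the AGM sequencing round as a replicate block, and skin has no round in it. In comparisons with skin the block therefore only narrows the AGM spread that skin is assumed to share. The common coefficient of variation is then 6.3% against 12.1%, so skin calls gained under the block rest on that assumption. In ES against E the spread comes from the 8 skin libraries, at a common coefficient of variation of 40.3%. Every call of this test below, apart from those of ES against E, was lost in a fit of all 14 libraries in 7 groups, where ES serves as the second skin library of each age and that coefficient is 81.5% against 12.1%. In bulk tissue, fewer cells of a type and less RNA per cell cannot be told apart.

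In AGM, most of the sugar-handling genes were higher at labelled E11.5 than at labelled E10.5. Slc2a1 was 5.94-fold higher, at a log2 change of 2.57 ± 0.15 (adjusted p = 4.27e-05). Ldha rose by 1.23 ± 0.10 (adjusted p = 1.17e-04), Hk2 by 1.01 ± 0.11, Pgk1 by 0.91 ± 0.11 and Pdk1 by 0.69 ± 0.09 on the log2 scale, with adjusted p of 0.00137 or less. Pfkp, at 0.58 ± 0.16 (adjusted p = 0.0328), and Egln3, at 0.53 ± 0.15 (adjusted p = 0.0334), also passed. In all, 7 of the 10 genes rose, where 11.8% of the 17613 genes tested rose and 15.4% fell. Vegfa, at a log2 change of -0.26 ± 0.09 (adjusted p = 0.0579), Bnip3, at 0.44 ± 0.16 (adjusted p = 0.0765), and Ndrg1, at 0.24 ± 0.16 (adjusted p = 0.307), did not pass.

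The calls of Slc2a1, Ldha, Hk2, Pgk1 and Pdk1 held without any 1 AGM library. Pfkp lost its call without round 1 labelled E10.5 (adjusted p = 0.189), without round 1 labelled E11.5 (0.122) and without round 2 labelled E11.5 (0.0795). Egln3 lost it when any 1 of the 4 libraries compared was left out, with adjusted p from 0.0534 to 0.194. Bnip3 passed without round 1 labelled E11.5 (adjusted p = 0.0317). With the sequencing round as a replicate block, Vegfa fell (adjusted p = 0.00194) and Bnip3 rose (adjusted p = 0.00189), so that 9 of the 10 genes were called, among 8491 genes called in place of 4791.

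The other glycolysis genes moved with them in this comparison: 13 of 17 rose and 1 fell, with a median log2 change of 0.80 against 0.00 over all genes tested. Slc2a3, the high-affinity neuronal and embryonic glucose transporter GLUT3, rose most, by 3.697 ± 0.16 (adjusted p = 1.5e-05), from 45.4 and 43.9 CPM to 595 and 492 CPM. The lactate transporters Slc16a1 and Slc16a3 rose by 1.33 ± 0.09 and 1.19 ± 0.13. Ldhb, the lactate dehydrogenase subunit of oxidative tissues, was the 1 that fell, at a log2 change of -2.398 ± 0.12, from 136 and 123 CPM to 24.2 and 21.9 CPM.

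The other HIF targets went in both directions. Of 18 other HIF targets, 4 rose and 6 fell, with a median of -0.01. Ak4, a mitochondrial adenylate kinase, rose by 1.46 ± 0.11, whereas Lox, which crosslinks collagen, fell by 1.99 on the log2 scale (SE 0.25), Car9, a carbonic anhydrase often used as a hypoxia marker, by 1.16 (SE 0.30), and the collagen lysyl hydroxylase Plod2 by 0.59 (SE 0.11). Among 10 HIF regulators, Cited2, an inhibitor of HIF, rose by 0.71 ± 0.11 and Vhl fell by 0.34 (SE 0.10). Hif1a, the main alpha subunit, measured 202 and 210 CPM labelled E10.5 and 205 and 208 CPM labelled E11.5.

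Cell type markers moved along with these genes. Between AGM labelled E10.5 and E11.5 the macrophage sum went from 58.3 and 54.2 CPM to 6.97 and 8.13 CPM, with Adgre1 at 0 in both libraries labelled E11.5 and Cx3cr1, C1qa and C1qb at 0 in round 2 labelled E11.5. The sum of 7 neuron genes went from 410 and 448 to 114 and 146 CPM, and that of 6 mesonephros genes from 195 and 178 to 51.1 and 49.4 CPM. The keratinocyte sum went from 52.5 and 57.6 to 159 and 152 CPM, mostly through Dsp, from 39.0 and 41.4 to 134 and 111 CPM. Krt5 went from 1.51 and 2.25 to 2.94 and 5.95 CPM, and Trp63 from 3.14 and 4.53 to 9.39 and 14.2 CPM. Krt10 did not rise, at 5.18 and 5.23, then 3.99 and 5.11 CPM. The part of these markers in the rise of the sugar-handling genes was not tested.

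Between AGM labelled E9.5 and labelled E10.5 the changes were smaller. Ldha was 1.56-fold higher, at a log2 change of 0.64 ± 0.09 (adjusted p = 0.0239), and was the 1 gene of 10 called, where 0.874% of genes rose and 1.72% fell. That call was lost without round 1 labelled E9.5 (adjusted p = 0.135), round 1 labelled E10.5 (0.105) or round 2 labelled E10.5 (0.116). With the replicate block, 7 of the 10 genes passed, among 4237 genes called in place of 457. Under that block Slc2a1, at 0.38 ± 0.07 (adjusted p = 0.0013), Pgk1, at 0.38 ± 0.06 (8.4e-04), Pdk1, at 0.30 ± 0.06 (0.00403), and Hk2, at 0.28 ± 0.06 (0.00346), rose beside Ldha. Vegfa, at -0.30 ± 0.05 (adjusted p = 0.00201), and Pfkp, at -0.42 ± 0.13 (0.0346), fell under it. With no filter on low counts, Slc2a1 (adjusted p = 0.0188) and Pgk1 (0.0221) also passed.

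In this step 2 of 17 other glycolysis genes rose, Slc16a1 and Pgam1, a phosphoglycerate mutase, both by 0.49 ± 0.09. Among the other HIF targets Ak4 rose by 0.59 ± 0.11, and Lox (-1.32 ± 0.21) and Plod2 (-0.73 ± 0.11) fell. Cited2 was the 1 HIF regulator that rose, by 0.59 ± 0.12.

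Skin titled E went through a fall and a later rise. From E9.5 to E10.5 the changes were modest: Hk2 fell by 0.78 on the log2 scale (SE 0.15, adjusted p = 0.0184) and Ldha by 0.54 (SE 0.12, adjusted p = 0.0357), whereas Egln3 rose by 0.98 ± 0.19 (adjusted p = 0.0224). That is 1 gene higher and 2 lower of the 10, beside 4.64% and 1.79% of the 19945 genes tested. Slc2a1, at -0.53 ± 0.19 (adjusted p = 0.168), did not pass. The Ldha call was lost when either round of AGM labelled E10.5 or labelled E11.5 was left out of the spread, with adjusted p from 0.0615 to 0.0739, and Egln3 missed the threshold in DESeq2 (adjusted p = 0.0539). With the replicate block 6 of the 10 genes passed, among 3872 genes called in place of 1282: Slc2a1 (adjusted p = 0.0013), Vegfa (0.0043) and Pdk1 (0.0347) fell in addition.

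In the same step 4 of 17 other glycolysis genes fell and Ldhb rose, by 1.19 ± 0.16. Slc2a3 fell by 1.14 on the log2 scale (SE 0.20) and Slc16a3 by 0.80 (SE 0.17). Car12, a carbonic anhydrase (-1.60 ± 0.24), and P4ha2, a collagen prolyl hydroxylase (-1.02 ± 0.17), fell among the other HIF targets, and 1 rose, Mxi1, an antagonist of Myc (0.82 ± 0.15, adjusted p = 0.0178). The sum of neuron genes stood at 370 CPM at E9.5 and 2337 CPM at E10.5, whose part was not tested.

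From E10.5 to E12.5 the genes that fell included the glucose transporter. Slc2a1 fell to 0.271 of its level, a log2 change of -1.89 ± 0.20 (adjusted p = 3.12e-04). Ldha fell by 1.42 (SE 0.12), Pgk1 by 1.26 (SE 0.17), Hk2 by 1.13 (SE 0.15) and Egln3 by 0.75 (SE 0.19, adjusted p = 0.0185). Ndrg1 went the other way and rose by 1.67 ± 0.21 (adjusted p = 7.96e-04). The count of 1 gene higher and 5 lower stands beside 17.4% and 12.7% of all genes tested. The Egln3 call was lost in DESeq2 (adjusted p = 0.0685). With the replicate block Vegfa rose (adjusted p = 0.0358) and Pdk1 fell (0.0171) too, among 9568 genes called in place of 6003.

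Of the other glycolysis genes 10 of 17 fell and 4 rose, with a median log2 change of -0.69. Pkm, the pyruvate kinase gene, fell by 1.35 (SE 0.15) and Eno1, an enolase, by 1.41 (SE 0.23), whereas Aldoc, the brain aldolase, rose by 1.84 ± 0.32. Of the other HIF targets 9 of 18 rose and 3 fell, with a median of 0.23. Among them Lox rose by 5.50 ± 0.32, Car12 by 3.18 ± 0.23 and P4ha2 by 2.24 ± 0.17. Hif3a, an alpha subunit that can restrain the others, rose by 2.09 ± 0.27, Epas1, which encodes HIF-2 alpha, by 0.97 ± 0.28, and Arnt by 0.74 ± 0.12, whereas Cited2 fell by 0.60 (SE 0.16, adjusted p = 0.0246). Beside this, the sum of 8 dermal fibroblast genes went from 510 CPM at E10.5 to 6394 CPM at E12.5, and that of dividing cells from 3723 to 2092 CPM. Their part in these changes was not tested.

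From E12.5 to E14.5 each of the 10 genes rose, where 14.3% of genes tested rose and 13.2% fell. Ndrg1 was 10.7-fold higher, at a log2 change of 3.42 ± 0.20 (adjusted p = 2.17e-05), and Slc2a1 8.10-fold, at 3.02 ± 0.21 (adjusted p = 4.21e-05). Egln3 rose by 1.89 ± 0.19, Vegfa by 1.43 ± 0.12, Bnip3 by 1.23 ± 0.27, Pgk1 by 1.19 ± 0.17, Pdk1 by 1.06 ± 0.13 and Pfkp by 1.04 ± 0.23. Ldha, at 0.91 ± 0.12, and Hk2, at 0.74 ± 0.15 (adjusted p = 0.00716), rose least. All 10 calls held without any 1 AGM library, in DESeq2 and with the replicate block, under which 9023 genes were called in place of 5488. Each of these fits has 1 skin library an age and takes its spread from AGM, so none can show how skin itself varies. In the fit of all 14 libraries all 10 calls were lost, and Pgk1 and Bnip3 turned to -0.42 and -0.25.

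In that last step genes of both lists rose. Of 17 other glycolysis genes 11 rose and 1 fell (median 0.72), led by Aldoa, an aldolase (1.90 ± 0.17), Slc2a3 (1.80 ± 0.20) and Slc16a1 (1.66 ± 0.12). Of 18 other HIF targets 12 rose (median 1.04, against 0.02 over all genes tested). Adm, the vasoactive peptide adrenomedullin, rose by 4.05 ± 0.41, from 1.42 to 21.5 CPM, Car12 by 2.10 ± 0.19, and P4ha1, a collagen prolyl hydroxylase, by 1.89 ± 0.13. Egln1, the main HIF prolyl hydroxylase, was the 1 HIF regulator that rose, by 0.80 ± 0.15. Arnt2, a neural relative of Arnt, fell by 1.97 (SE 0.15) and Vhl by 0.55 (SE 0.14).

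Cell type markers of skin titled E also changed at this step. Keratinocyte genes went from 281 to 7518 CPM in sum, dermal fibroblast genes from 6394 to 21760 CPM, red cell genes from 2382 to 5666 CPM and cartilage genes from 2067 to 101 CPM. Pdgfra of the fibroblast list fell, from 725 to 271 CPM. Hba-x and Hbb-bh1 of the red cell list fell too, from 517 to 383 CPM and from 80.7 to 23.2 CPM. The other genes of these 2 lists rose, with adult-type globins going from 210 to 2966 CPM in sum. All 8 keratinocyte and all 8 fibroblast genes were detected in both libraries. Their part in the rise was not tested, and each age is 1 library.

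**Figure D3:**
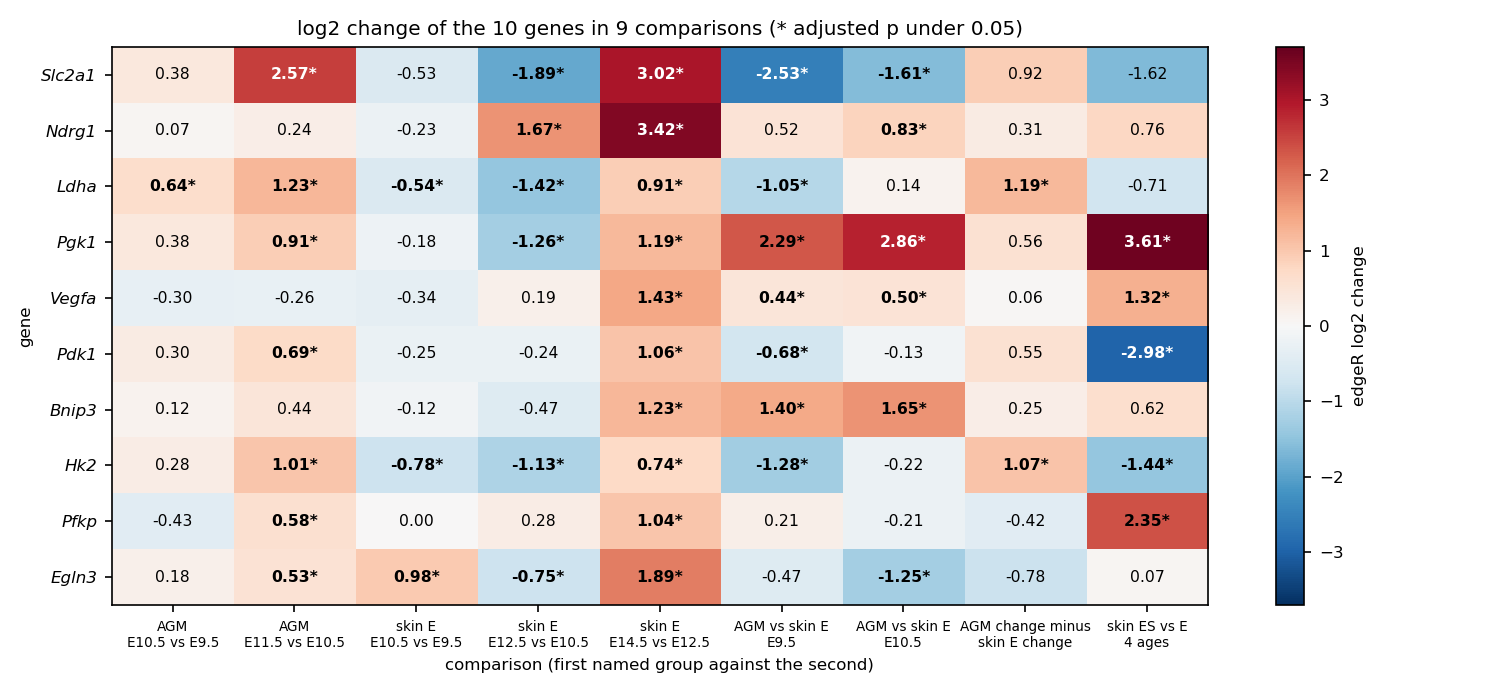
edgeR log2 changes (colour and number) of the 10 genes, by row, in 9 comparisons, by column; bold with an asterisk marks an adjusted p under 0.05. The E14.5 against E12.5 column is red in all 10 rows, from 0.74 for Hk2 to 3.42 for Ndrg1.

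AGM and skin titled E differed in both directions at matched labelled ages, with tissue and sequencing project that cannot be told apart. At E9.5, Slc2a1 (-2.53 ± 0.16, adjusted p = 2.93e-05), Hk2 (-1.28 ± 0.12), Ldha (-1.05 ± 0.10) and Pdk1 (-0.68 ± 0.11) were lower in AGM. Pgk1 (2.29 ± 0.15), Bnip3 (1.40 ± 0.23) and Vegfa (0.44 ± 0.11) were higher there. The 3 higher and 4 lower genes stand beside 18.0% and 15.9% of all genes tested, so the share called was 7 of 10 against 6759 of 19945. Under the replicate block Ndrg1 (adjusted p = 0.0177) was also higher and Egln3 (0.0246) lower, among 10234 genes called. Ndrg1 also passed without round 2 of AGM labelled E9.5 (adjusted p = 0.0417).

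At E10.5, Slc2a1 (-1.61 ± 0.16) and Egln3 (-1.25 ± 0.16) were lower in AGM, and Pgk1 (2.86 ± 0.15), Bnip3 (1.65 ± 0.23), Ndrg1 (0.83 ± 0.19) and Vegfa (0.50 ± 0.11) higher, beside 12.2% and 11.7% of all genes. Ldha, at 0.14 ± 0.11 (adjusted p = 0.389), Hk2, at -0.22 ± 0.13 (0.254), and Pdk1, at -0.13 ± 0.11 (0.442), did not pass. The Ndrg1 call was lost without round 1 labelled E10.5 (adjusted p = 0.0586) and the Vegfa call without round 2 labelled E10.5 (0.0677). Under the replicate block, with 8491 genes called in place of 4779, Hk2 was lower (adjusted p = 0.00761).

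The step from E9.5 to E10.5 was tested for a difference between the tissues. Ldha rose in AGM and fell in skin titled E, a difference in log2 changes of 1.19 ± 0.15 (adjusted p = 0.00463), and Hk2 differed by 1.07 ± 0.18 (adjusted p = 0.0116). These 2 of 10 genes moved up in AGM relative to skin, where 2.63% of genes tested did and 5.04% moved down. Slc2a1, at 0.92 ± 0.24 (adjusted p = 0.0524), missed the threshold, and passed with DESeq2 (0.0045), with no filter on low counts (1.02e-04) and without round 1 of AGM labelled E9.5 (0.0451). With the replicate block, Slc2a1 (adjusted p = 1.4e-04), Pgk1 (0.00354) and Pdk1 (0.00108) were also up and Egln3 (0.016) down, among 5137 genes called in place of 1530. Of 17 other glycolysis genes 6 were up in AGM relative to skin and 1 was down, Slc2a3 by 1.49 ± 0.25 and Ldhb by -1.62 ± 0.19. The ages in this test follow the labels.

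Set side by side without a test, AGM labelled E11.5 and the youngest skin library had like levels of some of the 10 genes and unlike levels of others. Slc2a1 stood at 723 and 588 CPM in the AGM pair and 525 CPM in skin titled E at E9.5, Hk2 at 187 and 164 against 187 CPM, Pdk1 at 128 and 125 against 109 CPM, and Egln3 at 12.3 and 10.96 against 10.49 CPM. Ldha was higher in the AGM pair, at 2218 and 2069 against 1304 CPM, and so were Pgk1, at 301 and 263 against 25.2 CPM, Bnip3, at 26.8 and 36.5 against 8.63 CPM, and Ndrg1, at 10.4 and 9.24 against 5.87 CPM. Vegfa stood at 66.8 and 67.1 against 77.7 CPM and Pfkp at 21.6 and 20.9 against 17.6 CPM. These tissues, projects and labelled ages all differ.

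Pgk1, with the largest difference between AGM and skin at E10.5 among the 10 genes, is also the one whose transcripts share most sequence with other loci. Of its distinct 50-base words, 53.9% also occur in transcripts of other genes, here 5 pseudogenes, and of its 100-base words 51.7% do. The shares at 50 bases are 36.9% for Bnip3 and 9.26% for Ldha, at most 0.182% for Ndrg1 and Vegfa, and 0 for the other 5 genes. Read lengths and the handling of reads with several matches are not given in the sources used here.

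Some other glycolysis genes with shared sequence also differed between AGM and skin titled E. Gapdh, whose 50-base words occur in 213 pseudogenes, had 54.7, 25.7, 8.62 and 15.2 CPM in skin titled E, against 880 to 1636 CPM in AGM and 253 to 338 CPM in ES. Its log2 difference between AGM and skin at E10.5 was 5.49 ± 0.16. Pgam1 (36.2% shared), Eno1 (26.0%) and Ldhb (21%) were higher in AGM by 1.93 ± 0.12, 1.61 ± 0.21 and 1.14 ± 0.14. The levels of Pgk1, Bnip3 and these genes between projects are therefore uncertain, and the part of shared sequence in them was not tested. Bnip3l, among the other HIF targets, has 20.8% shared and did not differ in this way. It measured 112 and 122 CPM in AGM labelled E10.5 and 122 CPM in skin titled E at E10.5. Within each AGM round, Pgk1 was higher at each later labelled age.

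**Figure D4:**
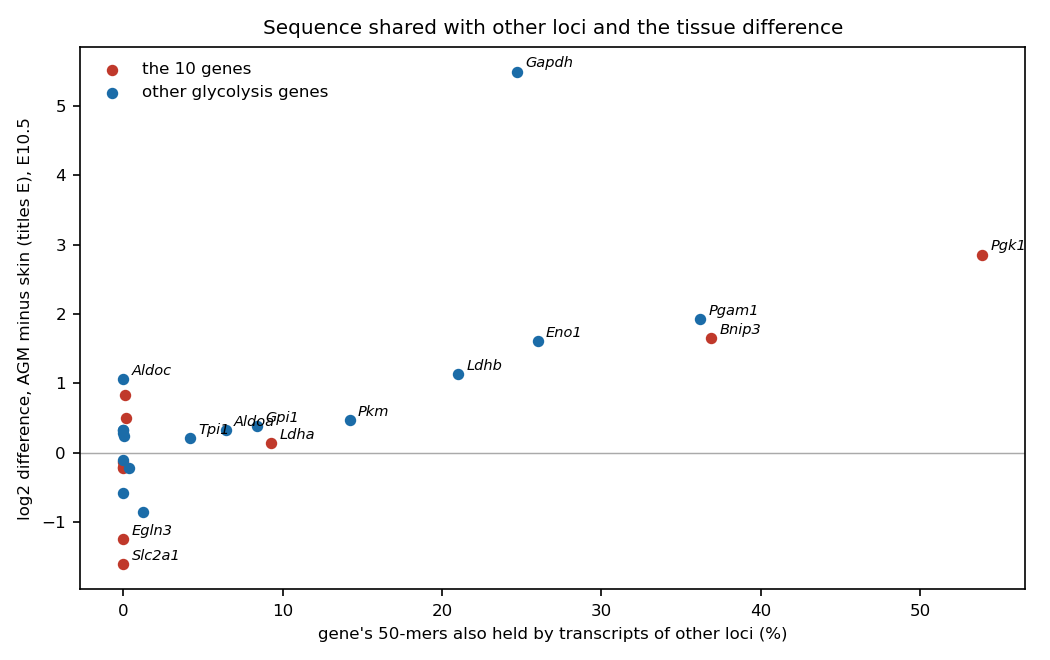
Share of a gene's 50-base words that also occur in transcripts of other loci (horizontal, %) against the log2 difference AGM minus skin titled E at E10.5 (vertical), 1 point a gene, for the 10 genes and 17 other glycolysis genes. The plotted genes with over 20% shared sequence all lie above 1, up to 5.49 for Gapdh, while Slc2a1 and Egln3, with 0% shared, lie lowest. Aldoc, with 0% shared, also lies above 1, at 1.06. The other HIF targets are not plotted.

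Skin titled ES was compared with skin titled E over the 4 ages, with age as a term. Pgk1 was 12.2-fold higher in ES, at a log2 difference of 3.61 ± 0.37 (adjusted p = 7.6e-04), Pfkp 5.09-fold, at 2.35 ± 0.26 (adjusted p = 9.94e-04), and Vegfa 2.5-fold, at 1.32 ± 0.29 (adjusted p = 0.00943). Pdk1 was lower, at -2.98 ± 0.42 (adjusted p = 0.00206), and so was Hk2, at -1.44 ± 0.34 (adjusted p = 0.0123). That is 3 genes higher and 2 lower, beside 29.5% and 29.3% of the 16588 genes tested, a share near the background. Pfkp shares no 50-base word with other loci, and neither do Pdk1 and Hk2, whereas the Pgk1 difference carries the uncertainty given above.

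Slc2a1, at -1.62 ± 0.58 (adjusted p = 0.0525), just missed the threshold in ES against E. It passed without the E12.5 libraries, at -2.27 (adjusted p = 0.00716), in DESeq2 (0.00755), with no filter on low counts (0.00891) and with no age term (0.0109). Ndrg1 was called higher without the E14.5 libraries, at 1.63 (adjusted p = 0.0253). Ldha (-0.71 ± 0.35), Bnip3 (0.62 ± 0.46) and Egln3 (0.07 ± 0.43) did not pass, and Ldha passed with no filter on low counts (adjusted p = 0.0454). Title and sequencing project cannot be told apart here.

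Within ES, with 1 library an age, 8 of the 10 genes varied less between ages than in skin titled E. The share of all genes that did so was not computed, so this may not be particular to the 10 genes. The highest of the 4 ages was 1.23 times the lowest for Vegfa, 1.31 times for Slc2a1 and 1.32 times for Ndrg1, against 2.90, 7.40 and 32.2 times in skin titled E. Pdk1, at 2.57 times, and Bnip3, at 2.44 times, varied most in ES, and more than in skin titled E, at 1.90 and 2.14 times, both with their highest value at E12.5, the ES library with the fewest counts.

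Regulators of HIF differed between the 2 kinds of skin library: 7 of 10 were lower in ES and 1, Hif1a, higher, with a median log2 difference of -1.0. Hif1a measured 370 to 460 CPM in ES and 210 to 247 CPM in skin titled E. Hif3a measured 0.0648 to 0.739 CPM in ES against 14.9 to 111 CPM, and Egln1 28.9 to 41.3 against 120 to 191 CPM. Pdk4, the pyruvate dehydrogenase kinase of fasting and fat use, was at 176 to 221 CPM in ES and 0.753 to 4.70 CPM in skin titled E (7.13 ± 0.56, adjusted p = 4.0e-04). Among the other HIF targets 4 of 18 were higher and 2 lower. Angptl4, an inhibitor of lipoprotein lipase, was higher by 4.71 ± 0.42, and Ak4, at -3.26 ± 0.62, was lower. The near absence of red cell genes and the low sum of dividing-cell genes in ES move with these differences, and their part was not tested.

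**Figure D5:**
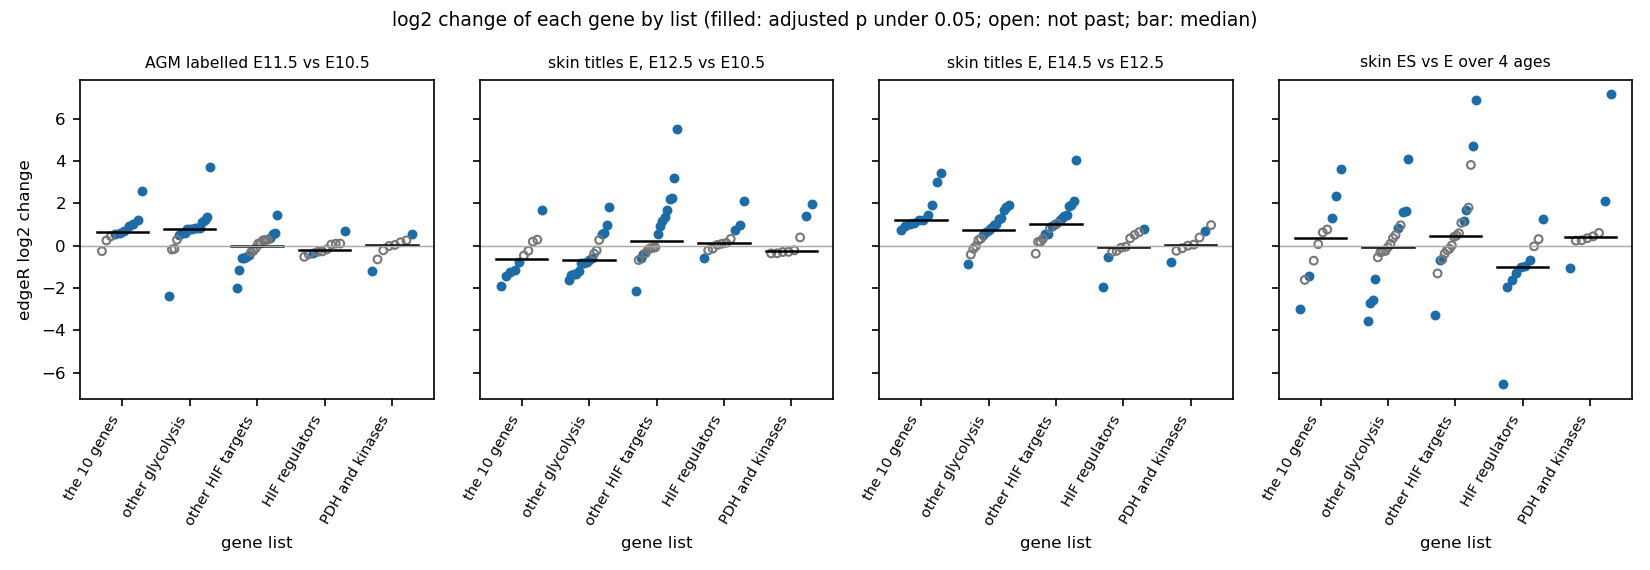
edgeR log2 changes of each gene by list in 4 comparisons (filled points, adjusted p under 0.05; open points, not past it; bars, medians). In AGM labelled E11.5 against E10.5 the 10 genes and the other glycolysis genes have medians of 0.64 and 0.80, and the other HIF targets of -0.01, whereas in skin at E14.5 against E12.5 the 3 medians are 1.21, 0.72 and 1.04.

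The 10 genes did not share 1 profile. Over the 10 libraries of AGM and skin titled E, Pearson's r with the mean standardised profile of all 10 genes, which includes the gene itself, was 0.88 for Pdk1 and 0.81 for Slc2a1, but 0.35 for Vegfa and 0.29 for Pgk1. Among 10062 genes ranked by that measure, those most like the mean profile were Llgl2 (r = 0.96), a cell polarity gene, Hacd2 (0.94), which makes long fatty acids, Lama5 (0.94), a basement membrane laminin chain, Itga3 (0.94), an integrin subunit, and Mapk3 (0.94), the kinase ERK1. Lama5 measured 115, 45.4, 52.2 and 302 CPM in skin titled E from E9.5 to E14.5, and 185 and 144 CPM in AGM labelled E11.5 against 61.4 to 81.1 CPM in the other AGM libraries. The libraries share tissue, project and round, so these correlations are descriptions.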

How the data were processed

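PolyA RNA-seq of 8 dorsal skin and 6 AGM libraries was analysed from the raw counts per gene that the authors deposited as 1 table. Per the submitters' processing notes, featureCounts 1.6.0 and STAR 2.5.0a were among the tools, as were DESeq2 1.20.0 and Trimmomatic 0.36, with mouse build GRCm38 (mm10). Read length and the settings of these tools are not given in the sources used here. Counts per 1000000 (CPM) were computed on the total counts, and lengths are the union of exons in GENCODE M21.

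The test was the quasi-likelihood test of edgeR 4.0.16 under R 4.3.3 (filterByExpr, TMM, glmQLFit, glmQLFTest), with p-values adjusted by Benjamini-Hochberg over all genes tested and called under 0.05. AGM ages were compared in the 6 AGM libraries. Skin titled E and the tissues were compared in 10 libraries, and ES with E in the 8 skin libraries with age as a factor. The edgeR test was tested on simulated counts. AGM rounds pair the samples: deviations from the age means correlated between ages at 0.408, 0.289 and 0.332 over 17613 genes, so a blocked fit is given where it changes a call. The block has no term for skin, which takes the smaller AGM spread in that fit. Other settings were DESeq2 1.42.0, median-of-ratios size factors, no low-count filter, all 14 libraries in 7 groups, no age term, and each AGM library or skin age left out.

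Members and gene lists were chosen with earlier results of these data known. The genes named are the 10 members, up to 4 called genes with the largest change in each list and comparison, the 5 genes most like the mean profile, and up to 5 promoter windows with the most matches. A HIF target that this rule names is not reported here. That likeness used log2(CPM + 1) of genes with a mean of 10 CPM or more. Other genes named with values were chosen after their values were seen. Among them are Lin28a, Lin28b, Trim71, Sall4, Igf2bp1, Hmga2, Hif1a and some named for their shared sequence. Words of 50 and 100 bases were counted over GENCODE M21 transcripts, and promoter windows come from RefSeq (GRCm38.p6).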

Additional observations from a re-analysis of the deposited data

Results flagged for a closer look

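The change from E9.5 to E10.5 differed between the tissues for 2 of the 10 genes, by a test of the difference itself in edgeR. For Ldha the AGM change minus the skin change was 1.19 on the log2 scale (adjusted p = 0.00463), with both AGM rounds up and the single pair of skin libraries titled E down. For Hk2 it was 1.07 (adjusted p = 0.0116), with the same directions. Skin has 1 library an age, the ages are those of the labels, and tissue and sequencing project cannot be told apart.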

How the results depend on the processing

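Of 960 values of the 10 genes under alternative settings, 847 kept their direction and their side of the threshold. Median-of-ratios size factors lost none of 47 calls, and DESeq2 lost 2. With the AGM round as a replicate block no call was lost, 20 values newly passed, and members called came to 7, 9, 6, 8, 10, 9, 7 and 6 in the 8 comparisons without ES. Genes called then were 4237 and 8491 between labelled AGM ages, 3872, 9568 and 9023 between skin ages, 10234 and 8491 between tissues, and 5137 for the difference of changes.

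A fit of all 14 libraries in 7 groups called 0 members and 0 genes in each of these 8 comparisons (edgeR), with 27 to 950 genes at an unadjusted p under 0.05. DESeq2 on the smaller sets of libraries called 931 to 4973 genes there. Values that turned there were, between skin ages, Ndrg1 0.06 and Vegfa 0.07 (E10.5 against E9.5), Pgk1 0.23, Bnip3 0.56, Pfkp -0.28 and Egln3 0.03 (E12.5 against E10.5), and Pgk1 -0.42 and Bnip3 -0.25 (E14.5 against E12.5). Between AGM and skin they were Ndrg1 -0.83, Pgk1 -0.09, Vegfa -0.28, Pdk1 0.18 and Pfkp -1.50 at E9.5, and Ndrg1 -0.82, Vegfa -0.66, Pdk1 0.73 and Hk2 0.32 at E10.5, and for the difference of changes Vegfa -0.37. That fit adds ES to each skin mean.

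With no low-count filter, AGM labelled E10.5 against E9.5 had 3 members and 1769 genes called, skin E10.5 against E9.5 had 2151 genes and the difference of changes 2651. DESeq2 called 931 genes in the first of these. Pfkp in skin E10.5 against E9.5 turned to -0.01 with median-of-ratios size factors and with DESeq2. In ES against E, Egln3 turned to -0.09 with no filter and -0.15 with no age term, and Ndrg1 to -1.02 with no age term. The causes were not tested.

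Leaving out 1 AGM library at a time gave 0 to 1 members and 1 to 477 genes called for AGM labelled E10.5 against E9.5, 5 to 7 and 2794 to 4566 for labelled E11.5 against E10.5, 2 to 3 and 1084 to 1299 for skin E10.5 against E9.5, 6 and 5387 to 5854 for E12.5 against E10.5, and 10 and 4971 to 5355 for E14.5 against E12.5. AGM against skin gave 7 to 8 and 4685 to 6457 at E9.5, 5 to 6 and 3195 to 4675 at E10.5, and the difference of changes 2 to 3 and 930 to 1561. Where this leaves an age with 1 library, that library is assumed to vary like the others. Between AGM labelled E10.5 and E9.5, Ndrg1 turned to -0.06 without round 2 labelled E9.5, and Bnip3 ranged from -0.01 without round 2 labelled E10.5 to 0.24 without round 1 labelled E10.5. Leaving out 1 skin age gave 5 to 6 members and 7479 to 10253 genes in ES against E, where Egln3 ranged from -0.32 without E12.5 and -0.15 without E9.5 to 0.40 without E14.5.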
